A study of Mus musculus with 3 samples.

Results

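Plasmacytoid dendritic cells (pDCs) in day 5 mouse tumours were described from single cell RNA sequencing libraries of dendritic cells. The cells were selected on their own transcript counts: barcodes absent from the deposited table of annotated cDC1s, with 800 or more genes and mitochondrial transcripts under 10% of UMIs, that held at least 1 UMI of *Siglech*, at least 1 UMI of 2 or more of *Ccr9*, *Cox6a2*, *Klk1* and *Pacsin1*, and no UMI of *Xcr1* or *C1qa*. The rule took 415 of the 26521 cells that passed the same filters (30209 barcodes in all). These 415 came from 3 libraries, with 172 from WT, 131 from *sGsn-/-* and 112 from *sGsn-/- Clec9a-/-* tumours.

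The study looked at cDC1s in MCA205 LA-OVA fibrosarcomas, and its mice included some that lacked secreted gelsolin, a plasma protein that covers actin of dead cells, alone or together with the actin receptor DNGR-1, the product of *Clec9a*. WT, *sGsn-/-* (labelled sGSN-/-) and *sGsn-/- Clec9a-/-* (labelled sGSN-/-Clec9a-/-) mice on a C57BL/6J background, males and females aged 6 to 20 weeks, carried tumours in both flanks, and the tumours of each genotype were pooled into 1 library. Live CD45+ CD11c+ MHCII+ CD88- cells, without lymphoid markers including B220, CD3e, NK1.1 and Ly6D or the markers Ly6G, Siglec-F and TER-119 of other lineages, were sorted as pre‐cDCs, cDC1s and cDC2s and remixed at 1:1:2. The authors recognised plasmacytoid cells by *Siglech* and set them aside, and pDCs usually carry B220, and the sort excluded that marker; neither their number nor their share is that of pDCs in the tumour.

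pDCs are dendritic cells of the blood, lymphoid organs and inflamed tissue, best known for secreting large amounts of type I interferon when endosomal Toll-like receptors meet viral or self nucleic acids. They depend on the E protein E2-2, encoded by *Tcf4*, share some features with lymphocytes, and at rest present antigen less well than conventional dendritic cells. In tumours they have often been described as poor producers of interferon.

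Levels below are UMIs summed over the cells of a library and scaled to all UMIs of that sum (CPM), always in the order WT, *sGsn-/-* and *sGsn-/- Clec9a-/-*. The members' sums held 1903584, 1474266 and 1145044 UMIs, with medians of 9929, 10228 and 8794 UMIs and 2837, 2890 and 2599 genes per cell. They made up 1.51%, 1.84% and 1.40% of the cells that passed the filters (95% intervals for counting error only, 1.30 to 1.75, 1.54 to 2.18 and 1.15 to 1.68), so the *sGsn-/-* library was highest and the intervals of all 3 libraries overlapped. No barcode of a member was found in a second library, although 81 barcodes among all cells were shared between libraries.

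The genotype labels were checked in the members first. *Clec9a* had 126, 120 and 1 UMIs, or 66.2, 81.4 and 0.873 CPM, present in WT and *sGsn-/-* and all but absent from *sGsn-/- Clec9a-/-*. Annotated cDC1s of the same libraries held 169, 168 and 0.0934 CPM, with the same library at the bottom. *Gsn*, which encodes both secreted and cytoplasmic gelsolin, stood at 184, 196 and 189 CPM in the members. These gene-level counts do not separate the secreted transcript, so they do not check the *sGsn-/-* label.

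The genes of the rule give a description and no test. Members held 1214, 1521 and 1329 CPM of *Siglech*, a pDC lectin, 838, 739 and 658 of the gut-homing receptor *Ccr9*, 472, 434 and 522 of the cytochrome c oxidase subunit *Cox6a2*, 400.3, 544 and 532 of the kallikrein *Klk1* and 183, 208 and 197 of the membrane-bending protein *Pacsin1*. Just inside the threshold, 162 members had exactly 2 of the 4 accompanying genes, a median of 4 *Siglech* UMIs per cell and, pooled, 698 CPM of *Siglech*, while the 131 with all 4 had a median of 20 and 1869 CPM. Just outside it, 288 cells with *Siglech* and 1 of the 4 genes had a median of 2 and 262 CPM.

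*Tcf4* and *Bst2*, which the rule did not use, followed the same order, but *Ly6c2*, also outside it, did not, with 1367 CPM in members with all 4 genes, 1767 in those with 2 and 969 just outside. *Tcf4* stood at 1424 CPM in members with all 4 genes, 1249 in those with 2, 811 just outside the rule and 298 in 567 cells with *Siglech* alone. *Bst2*, the tetherin recognised by pDC antibodies, stood at 2532 CPM in members with 2 genes and 1449 in cells with 1, so the threshold cut through a gradient in both genes. A further 115 cells met the rest of the rule but carried *Xcr1* or *C1qa*, and their median of 23622 UMIs was far above that of the members of any library. No annotated cDC1 met the whole rule, which excluded them by definition, so this gives no support to the choice of cells.

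Members were tested against 2 groups of the same libraries with edgeR's quasi-likelihood test, 3 sums against 3, and *p* was adjusted by Benjamini-Hochberg over all genes tested. Against 5715 annotated cDC1s, 2820 of 11441 genes (24.6%) were higher in the members and 2952 (25.8%) lower, with a median log2 fold change of −0.01. Against a pre‐cDC gate of 504 cells, chosen by transcripts that included *Flt3* and *Cd7*, 1394 of 8333 genes (16.7%) were higher and 1368 (16.4%) lower, with a median of 0.01. TMM factors set the zero of these fold changes. Without them the fold changes against cDC1s moved up by about 0.3 log2 (median 0.30) and 72.0% of the called genes were higher, compared with 48.9%, so that fold changes against cDC1s smaller than this depended on the scaling. Sizes are log2 fold changes ± standard error.

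**Figure D1:**
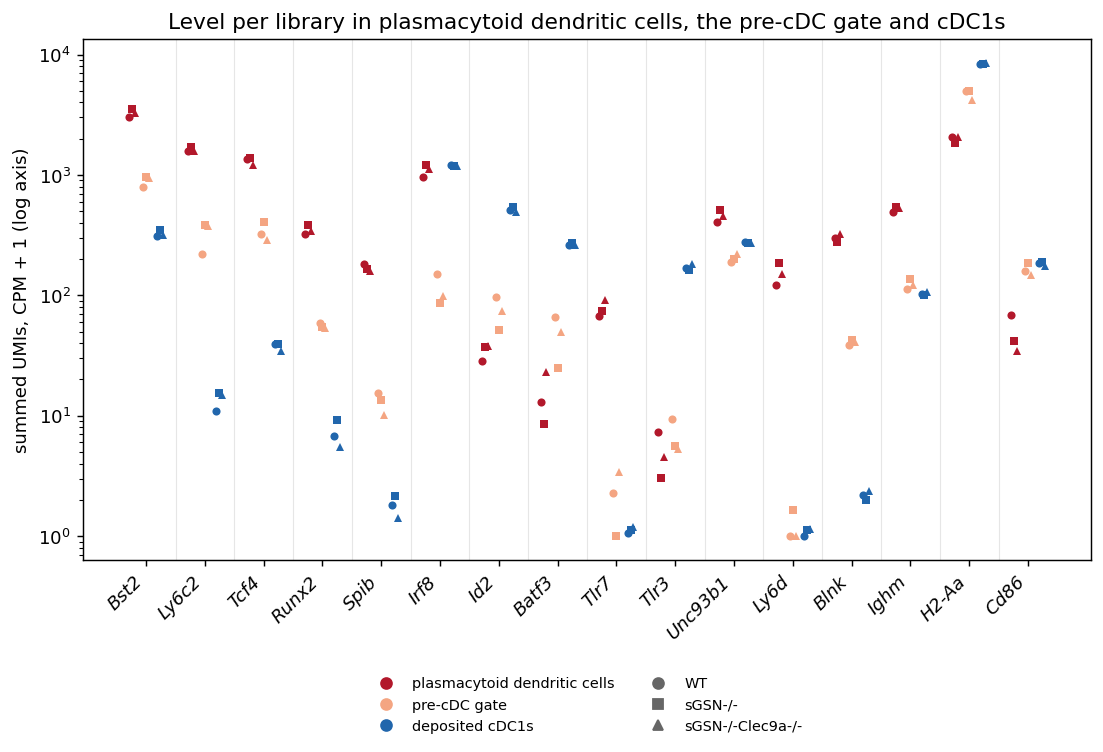
Level of 16 genes in plasmacytoid dendritic cells, the pre‐cDC gate and annotated cDC1s, 1 point per library (summed UMIs, CPM + 1 on a log axis).

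Surface and secreted products known from pDCs were high. *Bst2* was present at 3044, 3537 and 3251 CPM in the members, 791, 959.9 and 943 in the pre‐cDC gate and 308, 345 and 317 in cDC1s. The 3 groups did not overlap, and the gene was higher in the members than in pre‐cDCs (1.78 ± 0.10, adjusted p = 2.1e-08) and cDC1s (3.03 ± 0.08, adjusted p = 9.3e-11). *Ly6c2*, a GPI-anchored Ly6 protein found on pDCs and monocytes, had 1571, 1717 and 1577 CPM, compared with 220.2, 381 and 374 in pre‐cDCs and 9.96, 14.4 and 13.9 in cDC1s. Pre‐cDCs lay between members and cDC1s in every library, and the members were higher than either (2.24 ± 0.17, adjusted p = 2.9e-07, and 6.69 ± 0.15, adjusted p = 2.3e-11). *Lair1*, an inhibitory receptor for collagen, reached 449, 499 and 391 CPM in the members, 42.1, 52.7 and 53.9 in pre‐cDCs and 3.71, 3.45 and 3.97 in cDC1s, again without overlap (3.11 ± 0.13, adjusted p = 1.4e-09, and 6.60 ± 0.11, adjusted p = 5.0e-12).

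The list held 17 such genes outside the rule, all measured and all tested, and each was higher in the members in both comparisons, with medians of 4.78 against cDC1s and 2.31 against pre‐cDCs. For some of them, named below, the direction follows from the filter. Among receptors, *Lag3*, a ligand-binding inhibitory receptor for MHC class II, had 217, 218 and 209 CPM and the Ly49 family member *Klra17* had 147, 169 and 150.2 (log2 fold changes against pre‐cDCs, 2.66 ± 0.16 and 2.17 ± 0.13). *Cd300c* (1.93 ± 0.16) and the leukaemia inhibitory factor receptor *Lifr* (1.73 ± 0.13) encode receptors too. *Ly6a* (2.31 ± 0.22), which encodes Sca-1, and *Plac8* (1.25 ± 0.12) were abundant in all libraries, at 900.4, 1074 and 989 and 3168, 3491 and 3216 CPM. *Pld4* and *Rnase6*, enzymes that act on nucleic acids, had 445, 502 and 479 and 592, 691 and 691 CPM, and their margins were narrower against cDC1s (0.62 ± 0.07 and 0.90 ± 0.09) than against pre‐cDCs (1.90 ± 0.12 and 2.35 ± 0.10).

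Other genes of this list were lower in pre‐cDCs to varying extents. The sodium pump subunit *Atp1b1* had 420.3, 619 and 465 CPM in the members and 2.27, 6.51 and 8.47 in pre‐cDCs (6.54 ± 0.27, adjusted p = 1.4e-09), and 107, 100.2 and 108 in the NK gate, so it was not confined to the members. The pyrimidine enzyme *Upb1* (1.48 ± 0.17) and *Smim5* (2.49 ± 0.14) kept lower levels in pre‐cDCs. *Mctp2*, a calcium-binding membrane protein, had 216, 205 and 142 UMIs in the members and 2 in all pre‐cDCs, a ratio of 391-fold (95% counting interval, 108 to 3234). *Grm8*, a glutamate receptor, had only 33, 33 and 24 UMIs, yet none was counted in pre‐cDCs or cDC1s, which puts it at least 42.3-fold and 523-fold higher with a floor of 3 counts. *Grm8*, *Mctp2*, *Iglc3* and *Atp1b1* reached the test against pre‐cDCs only through the counts of the members. Their direction in that comparison thus follows from the filter. Against cDC1s the same held for genes that included *Grm8*, *Iglc3* and *Atp1b1*. The shared direction of the list thus follows in part from the filter in both comparisons.

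The genes with the largest fold changes at 50 CPM or more had few or no UMIs in the comparison cells. Against cDC1s they were *Iglc2*, *Iglc3*, *Mzb1*, *Dntt* and *Klk1b27*, and against pre‐cDCs *Iglc3*, *Cd8b1*, *Mzb1*, *Iglc2* and *Ly6d*. Each of these reached its test only through the counts of the members, so its direction there follows from the filter. *Mzb1*, a chaperone of antibody-secreting cells and pDCs, had 55.7, 75.97 and 55.02 CPM in the members, none in pre‐cDCs (at least 130.2-fold higher) and 1 UMI in cDC1s, a ratio of 4819-fold (95% counting interval, 858 to 190992). *Cd8b1*, the CD8 beta chain, had 313, 364 and 288 CPM and 1 UMI in pre‐cDCs, a ratio of 2029-fold (95% counting interval, 364 to 80199). *Klk1b27* is a close paralogue of *Klk1*, a gene of the rule, so its 58.3, 75.3 and 75.1 CPM are not independent of the choice of cells.

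The smallest fold changes against cDC1s included genes of conventional dendritic cells. *Il12b*, the shared subunit of interleukin-12 and interleukin-23, had 0, 0 and 1 UMIs in the members and 82.2, 120.5 and 34.2 CPM in cDC1s. *Tlr3*, a receptor for double-stranded RNA, had 6.30, 2.03 and 3.49 CPM compared with 169, 161 and 179.7 (−5.65 ± 0.20, adjusted p = 6.9e-10), and the integrin *Itgae* (CD103) 2.63, 3.39 and 4.37 compared with 146, 171 and 163 (−5.90 ± 0.18, adjusted p = 2.2e-10). No library of members came near the cDC1 range for these. *Gpr141b* and the neuronal membrane gene *Pianp* completed the 5, with 0, 0 and 2 and 1, 2 and 0 UMIs. *Il12b*, *Gpr141b* and *Pianp* reached this test only through the counts of cDC1s, so their direction follows from the filter. Against pre‐cDCs the fold changes at this end were smaller and included *Ifitm6* (−3.61 ± 0.24), the annexin *Anxa1* (−2.84 ± 0.18), the decoy receptor *Il1r2* (−2.77 ± 0.30) and *Ms4a6d* (−2.71 ± 0.28), a membrane protein of myeloid cells. *Ms4a6d* reached that test only through the counts of pre‐cDCs, so its direction there follows from the filter.

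Transcription factors separated the members from both groups. *Tcf4* had 1365, 1384 and 1217 CPM in the members, 322, 403 and 287 in pre‐cDCs and 38.4, 38.1 and 33.3 in cDC1s. The ranges were far apart, in the same order in each library (1.89 ± 0.11, adjusted p = 2.1e-08, and 4.87 ± 0.08, adjusted p = 5.0e-12). *Runx2*, which supports pDC exit from bone marrow, followed with 319.9, 383 and 342 CPM in the members, 58.3, 53.4 and 52.1 in pre‐cDCs and 5.73, 8.17 and 4.48 in cDC1s (2.58 ± 0.11, adjusted p = 1.4e-09, and 5.52 ± 0.16, adjusted p = 1.7e-10). *Spib*, an Ets factor of pDCs and B cells, had 181, 163 and 158 CPM, 14.6, 12.4 and 9.08 in pre‐cDCs and about 1 or less in cDC1s (3.67 ± 0.15, adjusted p = 1.4e-09, and 7.40 ± 0.17, adjusted p = 2.7e-11). As for the others, members were highest and nowhere overlapped. Against cDC1s, *Spib* reached the test only through the counts of the members, so its direction there follows from the filter.

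Of 11 transcription factors linked to pDCs, all measured and tested, 10 were higher than in pre‐cDCs and 1 lower (median 1.02), and 8 were higher and 2 lower than in cDC1s (median 2.90). *Bcl11a*, which sustains *Tcf4*, (0.92 ± 0.10, and 2.90 ± 0.07 against cDC1s) and *Mef2c* (1.02 ± 0.09, and 2.13 ± 0.08) were higher in both, as were *Ikzf1* (0.44 ± 0.12, and 0.81 ± 0.08) and *Ets1* (4.72 ± 0.34, and 5.86 ± 0.33). With 13 UMIs in all pre‐cDCs, *Ets1* reached the test against them only through the members, so its direction there follows from the filter. In cDC1s *Ets1* was close to the limit of the filter, so its direction against them may follow from it as well. *Ets1* was more abundant still in the NK gate (229, 219 and 207 CPM, compared with 42.03, 77.3 and 62.9). *Zeb2*, a repressor that favours pDCs over cDC1s, was higher than in cDC1s (4.51 ± 0.11, adjusted p = 5.2e-11); its small difference from pre‐cDCs (0.32 ± 0.10, adjusted p = 0.027) was lost without WT (0.32, adjusted p = 0.099) or without *sGsn-/- Clec9a-/-* (0.20, adjusted p = 0.23), and also with DESeq2, with 3 of the 4 genes required and with a wider pre‐cDC gate.

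*Irf8*, shared by pDCs and cDC1s, had 965, 1211 and 1128 CPM in the members, 149, 85.2 and 97.5 in pre‐cDCs and 1219, 1181 and 1194 in cDC1s. Members and cDC1s lay at a similar height, far above pre‐cDCs (3.20 ± 0.16, adjusted p = 6.7e-09). The call below cDC1s (−0.43 ± 0.08, adjusted p = 0.0011) was lost without TMM factors (−0.12, adjusted p = 0.23) and with 3 of the 4 genes required (−0.13, adjusted p = 0.16). *Irf7*, the factor behind large interferon responses, had 248, 209 and 304 CPM, compared with 189, 247 and 198 in cDC1s, and did not pass that test (−0.05 ± 0.14, adjusted p = 0.78), but it was higher than in pre‐cDCs (0.84 ± 0.13, adjusted p = 2.0e-04). *Cbfa2t3*, which encodes the corepressor ETO2, was lower than in cDC1s (−1.06 ± 0.10, adjusted p = 3.3e-06); its call below pre‐cDCs (−0.38 ± 0.11, adjusted p = 0.021) was lost without *sGsn-/-* (−0.34, adjusted p = 0.11) and without TMM factors (−0.29, adjusted p = 0.085).

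Factors of conventional dendritic cells were low. *Id2*, an inhibitor of E proteins, had 27.3, 35.95 and 36.7 CPM in the members, 96.2, 50.8 and 72.6 in pre‐cDCs and 514, 543 and 491 in cDC1s. Members were lowest in each library (−1.28 ± 0.21, adjusted p = 3.4e-04, and −4.29 ± 0.11, adjusted p = 5.0e-11), although with thinned cells the call below pre‐cDCs was lost (−0.77, adjusted p = 0.11). *Batf3*, required by cDC1s, had 12.1, 7.46 and 21.8 CPM in the members, 65.1, 24.1 and 48.4 in pre‐cDCs and 262, 269 and 262 in cDC1s. It was likewise lowest in the members, most narrowly in *sGsn-/- Clec9a-/-* against the *sGsn-/-* pre‐cDCs (−1.94 ± 0.37, adjusted p = 8.8e-04, and −4.64 ± 0.18, adjusted p = 1.9e-09), and a single WT member held 11 of that library's 23 UMIs. Of 9 such factors, all measured and tested, 7 were lower than in cDC1s and 1 higher (median −1.96), and 8 were lower than in pre‐cDCs (median −0.72). With thinned cells only 2 of 6 tested were lower than in pre‐cDCs, and with 3 of the 4 genes of the rule required all 9 were. *Zfp366* (−3.21 ± 0.24 against cDC1s), *Bcl6* (−1.96 ± 0.13) and *Nfil3* (−1.42 ± 0.10) were among the 7. Below pre‐cDCs, the call of *Bcl6* (−0.72 ± 0.20, adjusted p = 0.011) was lost without WT (−0.45, adjusted p = 0.21), with DESeq2 (−0.71, adjusted p = 0.088) and with thinned cells (−0.33, adjusted p = 0.56), and that of *Relb* (−0.66 ± 0.16, adjusted p = 0.0049) without WT (−0.498, adjusted p = 0.098) and with thinned cells (−0.63, adjusted p = 0.101). *Zbtb46* was lower than in cDC1s (−2.21 ± 0.27, adjusted p = 3.0e-05), and its call below pre‐cDCs (−1.25 ± 0.34, adjusted p = 0.012) was lost without *sGsn-/-* (−0.86, adjusted p = 0.061) or without *sGsn-/- Clec9a-/-* (−1.25, adjusted p = 0.0502).

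*Irf4*, a factor of cDC2s, was higher than in cDC1s. It had 67.2, 85.5 and 66.4 CPM in the members, 71.9, 82.00 and 76.3 in pre‐cDCs and 4.32, 4.34 and 4.39 in cDC1s, so that members and pre‐cDCs overlapped and both lay above cDC1s (3.76 ± 0.13, adjusted p = 6.1e-10); with 3 of the 4 genes of the rule required it was called lower than in pre‐cDCs (−0.47, adjusted p = 0.018). *Relb* did not pass against cDC1s (−0.51 ± 0.21, adjusted p = 0.063), though it did with the library as a block (−0.4995, adjusted p = 0.0205) and without *sGsn-/- Clec9a-/-* (−0.74, adjusted p = 0.013). With 3 of the 4 genes of the rule required it was also called lower than in cDC1s (−0.93, adjusted p = 0.0079). *Klf4* was lower than in pre‐cDCs (−0.64 ± 0.12, adjusted p = 0.00105).

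Among genes of endosomal sensing, *Tlr7*, the receptor for single-stranded RNA, had 66.7, 73.3 and 89.95 CPM in the members, 1.30, 0 and 2.42 in pre‐cDCs and 0.0613, 0.128 and 0.187 in cDC1s. Members thus stood far above the others (5.74 ± 0.34, adjusted p = 2.5e-08, and 8.93 ± 0.25, adjusted p = 1.0e-10). *Tlr7* reached both tests only through the counts of the members, so its direction in them follows from the filter. At least 1 UMI was found in 37.2%, 45.8% and 50% of members, compared with 0.31%, 0.596% and 0.426% of the NK gate, whose median depths were 9807, 8589.5 and 7062 UMIs; with every cell thinned to 3000 UMIs, the shares of members were 17.8%, 20.6% and 23.9%. *Tlr9*, the receptor for CpG DNA, had far fewer counts, 15, 15 and 5 UMIs. It was higher than in cDC1s (1.10 ± 0.30, adjusted p = 0.0101), but not without WT (0.96, adjusted p = 0.096) or without *sGsn-/-* (0.92, adjusted p = 0.094). *Tlr12*, a receptor for profilin, had 11.6, 9.50 and 13.1 CPM and was higher than in pre‐cDCs (2.12 ± 0.35, adjusted p = 2.9e-04). *Tlr12* reached that test only through the counts of the members, so its direction there follows from the filter. Its call above cDC1s (0.77 ± 0.22, adjusted p = 0.013) was lost without WT (0.69, adjusted p = 0.11), without *sGsn-/- Clec9a-/-* (0.63, adjusted p = 0.096) and with thinned cells (0.93, adjusted p = 0.12).

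The trafficking protein *Unc93b1*, which carries these receptors to endosomes, had 408, 505 and 455 CPM in the members, 189.7, 199 and 220.3 in pre‐cDCs and 278, 271 and 270.1 in cDC1s, highest in the members throughout (1.08 ± 0.11, adjusted p = 4.0e-06, and 0.43 ± 0.08, adjusted p = 8.5e-04). *Slc15a4*, an endolysosomal transporter needed for interferon production by pDCs, was higher than in cDC1s (1.20 ± 0.14, adjusted p = 2.9e-05) and did not pass against pre‐cDCs (0.36 ± 0.16, adjusted p = 0.11; 0.57, adjusted p = 0.037 without *sGsn-/-* and 0.43, adjusted p = 0.031 without the doublet candidates described below). *Irf5*, a factor of inflammatory cytokine genes, had 61.5, 62.4 and 67.2 CPM in the members and was lower than in both (−0.92 ± 0.11, adjusted p = 2.6e-05, and −1.97 ± 0.09, adjusted p = 3.9e-09). The adaptor *Myd88* was lower than in cDC1s (−0.83 ± 0.09, adjusted p = 1.1e-05), and below pre‐cDCs (−0.51 ± 0.12, adjusted p = 0.00396) the call was lost without *sGsn-/-* (−0.45, adjusted p = 0.052). Altogether 5 of 11 genes were higher and 4 lower than in cDC1s, and 3 were higher and 3 lower than in pre‐cDCs among 10 tested, so the list had no common direction. Without TMM factors, or with thinned cells, 2 and not 4 were lower than in cDC1s.

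Interferon genes themselves were near the limit of detection. Of 17 genes for interferon beta, alpha and lambda, 16 had no UMI in any member, and *Ifnl2* had 0, 1 and 2. A floor of 3 counts corresponds to 1.58, 2.03 and 2.62 CPM, so levels of a single gene under about this height could have been missed. Annotated cDC1s, whose sums held far more UMIs, had 8, 105 and 0 UMIs of these 17 genes. The pre‐cDC gate had 0, 1 and 0, and the NK gate 0, 0 and 0. Genes induced by interferon were not raised as a group: 2 of 15 were higher and 9 lower than in cDC1s (median −0.68), and 2 were higher and 1 lower than in pre‐cDCs among 14 tested (median 0.06; without the doublet candidates 3 were higher and 4 lower, and with thinned cells none of 7 was higher). *Isg15*, a ubiquitin-like protein, had 161, 91.6 and 144 CPM, 99.1, 139 and 106 in pre‐cDCs and 195, 266 and 199 in cDC1s. The members lay below cDC1s in each library (−1.03 ± 0.18, adjusted p = 4.4e-04) and overlapped with pre‐cDCs, above which it was called without *sGsn-/-* (0.49, adjusted p = 0.027). The deubiquitinase *Usp18* was lower than in cDC1s too (−0.83 ± 0.18).

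Both chains of the type I interferon receptor were high. *Ifnar1* had 199, 243 and 195 CPM in the members, 79.6, 72.2 and 65.4 in pre‐cDCs and 83.7, 79.6 and 74.7 in cDC1s, and *Ifnar2* had 361, 362 and 349 in the members, 139.9, 143 and 159 in pre‐cDCs and 113, 113 and 115 in cDC1s. Neither overlapped with another group (1.46 ± 0.12, adjusted p = 4.8e-07 and 1.19 ± 0.10, adjusted p = 5.8e-07 against pre‐cDCs). Among receptors for growth factors, *Csf2rb2*, a receptor subunit for interleukin-3, was higher than in pre‐cDCs (1.56 ± 0.12, adjusted p = 2.6e-07) and cDC1s (3.79 ± 0.10, adjusted p = 9.3e-11), and *Csf2rb*, the common beta chain, higher than in cDC1s (0.43 ± 0.08, adjusted p = 6.2e-04). Of 9 receptors, 5 were higher and 3 lower than in cDC1s, and 3 were higher and 4 lower than in pre‐cDCs.

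pDCs are built for secretion, and several genes of the secretory pathway were higher in the members. *Hsp90b1*, the endoplasmic reticulum chaperone that folds Toll-like receptors, had 1014, 1051 and 956 CPM, compared with 521, 471 and 425 in pre‐cDCs and 681, 686 and 593 in cDC1s, with no overlap (1.004 ± 0.09, adjusted p = 8.5e-07, and 0.32 ± 0.07, adjusted p = 0.0024). The translocon subunit *Sec61b* was higher than in cDC1s (0.32 ± 0.06, adjusted p = 0.0013); above pre‐cDCs (0.32 ± 0.08, adjusted p = 0.0067) the call was lost without WT (0.26, adjusted p = 0.076) or *sGsn-/-* (0.33, adjusted p = 0.075). *Hspa5*, the chaperone BiP, was instead lower than in cDC1s (−0.68 ± 0.07, adjusted p = 8.7e-06). Of 14 genes, 8 were higher and 1 lower than in pre‐cDCs (median 0.45), and 6 were higher and 4 lower than in cDC1s (median 0.12), a split that without TMM factors became 10 higher and 3 lower.

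Genes of antigen presentation on MHC class II were low, in cells sorted as MHCII+. *H2-Aa* had 2079, 1846 and 2059 CPM in the members, 5004, 4958 and 4181 in pre‐cDCs and 8332, 8332 and 8536 in cDC1s. Members held the least in every library, far under the pre‐cDC level (−1.33 ± 0.09, adjusted p = 9.2e-08, and −2.38 ± 0.08, adjusted p = 7.1e-10), although still more than the NK gate (419.5, 465 and 507 CPM). *H2-Ab1* (−1.52 ± 0.11 against pre‐cDCs), *H2-Eb1* (−1.64 ± 0.10) and the invariant chain *Cd74* (−1.21 ± 0.10) went the same way. All 11 genes of the list were lower than in pre‐cDCs (median −1.33) and 10 were lower than in cDC1s (median −2.07). The exception, chosen after its values were seen, was the protease *Ctss*, higher than in cDC1s (0.53 ± 0.08).

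Costimulatory genes were also low. *Cd86* had 67.2, 40.7 and 33.2 CPM in the members, 158, 184 and 148 in pre‐cDCs and 184, 189 and 174 in cDC1s, and *Cd83* had 112, 61.7 and 121 in the members, 467, 449.7 and 377 in pre‐cDCs and 784, 772 and 774 in cDC1s. Both were lowest in the members without overlap (−1.83 ± 0.19, adjusted p = 4.0e-06 and −2.23 ± 0.18, adjusted p = 4.6e-07 against pre‐cDCs; −2.20 ± 0.16, adjusted p = 4.5e-07 and −3.30 ± 0.17, adjusted p = 2.1e-08 against cDC1s). *Cd40* and *Icosl*, the ligand of ICOS, were lower as well (−1.89 ± 0.22 and −1.53 ± 0.19 against pre‐cDCs). Of 11 genes, 10 were tested against cDC1s, with 8 lower and none higher, and 6 against pre‐cDCs, with 5 lower and none higher.

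Among cytokines and chemokines, the chemokine *Ccl4* stood out. It had 1579.7, 2114 and 2288 CPM in the members, 521, 475 and 641 in pre‐cDCs and 1043, 989.7 and 981 in cDC1s, higher in the members in every library (1.78 ± 0.15, adjusted p = 7.3e-07, and 0.68 ± 0.12, adjusted p = 4.5e-04). *Il12a*, the p35 chain of interleukin-12, was chosen after its values were seen: 105, 88.2 and 113 CPM in the members, 10.4, 7.81 and 6.66 in pre‐cDCs and 0.0919, 0.128 and 0.0467 in cDC1s. Members thus carried *Il12a* almost without *Il12b*, and cDC1s, summed over all annotated cells, the reverse. Against cDC1s, *Il12a* reached the test only through the members and *Il12b* only through cDC1s, so both directions follow from the filter. *Il1b* was low, with 766, 529 and 406 CPM compared with 3408, 3083 and 2560.0 in pre‐cDCs and 2275, 2171 and 1737 in cDC1s (−2.49 ± 0.17, adjusted p = 1.2e-07, and −2.16 ± 0.18, adjusted p = 1.1e-06); pooled, it stood at 785 CPM in members with 2 of the 4 genes and at 1578 in the cells just outside the rule. *Tgfb1* was higher than in cDC1s (0.63 ± 0.08, adjusted p = 6.2e-05) and did not differ from pre‐cDCs past the threshold (−0.16 ± 0.09, adjusted p = 0.22). Of 13 genes, 3 were higher and 5 lower than in cDC1s, and 2 were higher and 4 lower than in pre‐cDCs among 11 tested. Without the doublet candidates 8 were lower than in cDC1s and 7 than in pre‐cDCs; these included *Ccl5* (−3.20, adjusted p = 2.2e-04, and −1.77, adjusted p = 0.0095) and *Cxcl10* (−1.47, adjusted p = 0.0041, and −2.06, adjusted p = 6.7e-04). With DESeq2 2 were lower than in pre‐cDCs.

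Receptors for homing differed gene by gene. *Selplg*, the selectin ligand PSGL-1, had 700.3, 783 and 689 CPM, 300.1, 311 and 347 in pre‐cDCs and 236, 237 and 229 in cDC1s, highest in the members (1.09 ± 0.10, adjusted p = 1.4e-06, and 1.32 ± 0.07, adjusted p = 1.9e-08). *Ccr2*, the receptor of monocytes and pre‐cDCs, had 319, 309 and 350.2 CPM and was lower than in pre‐cDCs (−0.61 ± 0.09, adjusted p = 1.1e-04); against cDC1s it did not pass (−0.08 ± 0.08, adjusted p = 0.41) and became a higher call without TMM factors (0.23, adjusted p = 0.023). Against pre‐cDCs 4 of the 9 tested genes were higher (2 of 7 with thinned cells) and 3 lower, and against cDC1s 5 were higher and 2 lower.

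Several signalling adaptors and inhibitory receptors were also higher than in cDC1s; SIGLEC-H signals through DAP12. *Tyrobp*, which encodes DAP12, had 3959, 4127 and 4109 CPM in the members, 1954, 2287 and 2338 in pre‐cDCs and 878, 909 and 915 in cDC1s. Members were highest in each library (0.80 ± 0.10, adjusted p = 1.8e-05, and 1.86 ± 0.07, adjusted p = 1.3e-09). *Fcer1g*, the adaptor FcRγ, was higher than in cDC1s (1.5003 ± 0.08, adjusted p = 1.9e-08) and did not pass against pre‐cDCs (−0.23 ± 0.09, adjusted p = 0.058). It was called lower than in pre‐cDCs with the library as a block (−0.23, adjusted p = 0.024) and without WT (−0.35, adjusted p = 0.0195). With 3 of the 4 genes of the rule required it was lower too (−0.50, adjusted p = 5.0e-04). *Cd300a*, an inhibitory receptor, lay above cDC1s (1.497 ± 0.12, adjusted p = 6.0e-07) and below pre‐cDCs (−0.91 ± 0.12, adjusted p = 3.6e-05). Against cDC1s 6 of 8 genes were higher and 1 lower, and against pre‐cDCs 3 were higher and 3 lower (5 lower with 3 of the 4 genes of the rule required).

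Lymphoid genes set the members most widely apart. *Dntt*, terminal transferase, had 114, 149.9 and 155 CPM in the members and 2 UMIs in all pre‐cDCs, a ratio of 427-fold (95% counting interval, 118 to 3538). *Ly6d*, an early lymphoid marker, had 121, 185 and 150.2 CPM and 1 UMI in pre‐cDCs, a ratio of 938-fold (95% counting interval, 168 to 37112). The lambda light chain constant genes *Iglc3* and *Iglc2*, which are nearly identical in sequence, had 257, 282 and 381 CPM and 63.04, 41.4 and 53.3 CPM, and no UMI in pre‐cDCs (at least 642-fold and 110.0-fold higher). *Iglc3* was counted in the list of pDC products. No single cell held more than 5% of a library's *Iglc3* UMIs, whereas 1 cell held 12.5%, 19.7% and 41.0% of those of *Iglc2*.

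*Blnk*, an adaptor of the B cell receptor, had 299, 274 and 325 CPM, 37.9, 41.6 and 39.95 in pre‐cDCs and 1.19, 0.979 and 1.35 in cDC1s, without overlap (2.83 ± 0.12, adjusted p = 1.4e-09, and 7.68 ± 0.13, adjusted p = 5.1e-12). *Ighm*, the mu heavy chain, was also present in pre‐cDCs (111, 137 and 120.5 CPM, compared with 489, 539.9 and 534; 2.01 ± 0.10, adjusted p = 7.2e-09), as was the interleukin-7 receptor *Il7r* (58.6, 63.1 and 45.4, compared with 292, 350.0 and 341; 2.46 ± 0.12, adjusted p = 5.3e-09). Of 12 lymphoid genes, 10 had UMIs in the members and 9 were tested, all of them higher than in cDC1s (median 7.68) and than in pre‐cDCs (median 6.82, or 6.78 with genes absent from pre‐cDCs at their bound). *Iglc2*, *Ly6d* and *Dntt* had so few UMIs in pre‐cDCs that only the counts of the members took them past the filter. Against cDC1s the same held for genes that included *Iglc2*, with no UMI there, and *Dntt*, with 4. The shared direction thus follows in part from the filter in both comparisons. *Rag1* and *Rag2*, the recombinase genes, had no UMI, and *Jchain* had 1. The B cell genes *Ms4a1*, *Cd79a*, *Pax5* and *Ebf1* had none in any member either.

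The sort removed Ly6D+ cells, yet *Ly6d* transcripts were found in 27.9%, 46.6% and 40.2% of members (15.98%, 28.2% and 24.8% after thinning), compared with 0%, 0.0994% and 0% of the NK gate. Surface protein was not measured here. The other genes of the sort were present: *Ptprc* (CD45) at 954, 954 and 803 CPM and *Itgax* (CD11c) at 129, 104 and 89.1, higher than in cDC1s (1.07 ± 0.12, adjusted p = 1.2e-05). *Itgax* was called lower than in pre‐cDCs (−0.46 ± 0.13, adjusted p = 0.011), but not without *sGsn-/-* (−0.41, adjusted p = 0.102), without *sGsn-/- Clec9a-/-* (−0.37, adjusted p = 0.065) or with thinned cells (−0.43, adjusted p = 0.057).

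The members were not uniform. Among them 201 held a UMI of *Dntt* and 214 did not, at median depths of 9843 and 9646 UMIs. Pooled over libraries, *Siglech* stood at 1871 CPM in the first set and 815 in the second, *Cox6a2* at 723 and 222 and *Spib* at 240.1 and 99.1, while *Tcf4* was level at 1374 and 1294. *Cx3cr1*, a fractalkine receptor known from transitional dendritic cells, ran the other way, with 12.8 and 59.7 CPM. Each library showed these directions for *Siglech*, *Cox6a2*, *Spib* and *Cx3cr1* (*Cx3cr1* at 9.25, 17.3 and 11.5 CPM with *Dntt* and 82.9, 40.5 and 29.0 without). *Il1b* was lower with *Dntt* in WT and *sGsn-/-* but not in *sGsn-/- Clec9a-/-* (392, 326 and 423, compared with 1013, 776 and 379). The 77 members with a *Cx3cr1* UMI had 603 CPM of *Siglech* and 30.2 of *Dntt*, compared with 1534 and 164 in the other 338. *Siglech* and *Cox6a2* are genes of the rule, so these splits describe the chosen cells only.

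Genes listed for transitional dendritic cells had no common direction. *Cx3cr1* had 53.6, 27.8 and 18.3 CPM in the members, highest in WT and lowest in *sGsn-/- Clec9a-/-*, 76.7, 74.8 and 72.6 in pre‐cDCs and 4.41, 2.26 and 3.22 in cDC1s. Members lay between the others (−1.18 ± 0.24, adjusted p = 0.0015, and 3.08 ± 0.34, adjusted p = 1.5e-05), as they did for *Tmem176b*, an ion channel (−1.65 ± 0.21, adjusted p = 3.1e-05, and 1.87 ± 0.22, adjusted p = 1.9e-05). *Cd8a*, in contrast, was highest in the members, with 87.2, 132 and 145 CPM, 2.27, 12.4 and 5.45 in pre‐cDCs and 1.16, 1.87 and 1.82 in cDC1s (4.29 ± 0.34, adjusted p = 4.8e-07, and 5.93 ± 0.23, adjusted p = 1.3e-09). *Cd8a* reached the test against pre‐cDCs only through the counts of the members, so its direction there follows from the filter. Of 7 genes, 5 were lower and 1 higher than in pre‐cDCs, and 4 were higher and 2 lower than in cDC1s.

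Some markers of cDC2s were shared. *Cd209a*, a lectin, had 363, 362 and 366 CPM in the members, 751, 778 and 787 in pre‐cDCs and 25.4, 26.1 and 22.5 in cDC1s, and was found in 69.8%, 70.99% and 60.7% of members, compared with 5.42%, 7.46% and 7.23% of the NK gate (44.4%, 49.6% and 40.4% of members after thinning). The lectin *Clec10a* was higher than in pre‐cDCs (0.43 ± 0.11, adjusted p = 0.0061), whereas *Cd209a* (−1.18 ± 0.08, adjusted p = 1.7e-07) and *Mgl2* (−1.82 ± 0.32, adjusted p = 4.8e-04), another lectin, were lower. The 5 cDC2 markers, all present, summed to 811, 754 and 825 CPM. The 5 cDC1 markers summed to 139, 149 and 121 CPM, with *Clec9a* most abundant in WT and *sGsn-/-* and *Naaa* in *sGsn-/- Clec9a-/-*. In the 2 libraries that can express it, *Clec9a* was called higher than in pre‐cDCs (1.13, adjusted p = 6.5e-04) and lower than in cDC1s (−1.501, adjusted p = 8.6e-06), while with all 3 libraries it did not pass either test (1.15 ± 0.71, adjusted p = 0.24, and −1.38 ± 1.21, adjusted p = 0.38); with the library as a block both calls returned (1.14, adjusted p = 4.4e-05, and −1.49, adjusted p = 4.0e-07).

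Transcripts of other cell types were present at low levels. The 7 NK markers, all found, summed to 265, 531 and 235 CPM, with *Gzma* most abundant in WT and *sGsn-/-* and *Klrk1* in *sGsn-/- Clec9a-/-*, and the 7 T cell markers to 41.0, 79.4 and 78.6, with *Trbc2* most abundant in *sGsn-/-* and *sGsn-/- Clec9a-/-* and *Cd28* in WT. A single cell held 71.2% of the *Gzma* UMIs of WT. Of 6 B cell markers only *Fcer2a* had a UMI, a single one. The 7 macrophage markers, with *Apoe* leading in WT and *sGsn-/-* and *Lyz2* in *sGsn-/- Clec9a-/-*, summed to 281, 102 and 658 CPM while *C1qa* was 0 by the rule. All 6 neutrophil markers were at 0, 5 of 6 fibroblast markers were at 0 with 1 UMI of *Col1a2*, and 4 of 5 red cell markers were at 0 with 1 UMI of *Hbb-bs*.

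By co-expression, 22 members (5, 10 and 7) were candidates for doublets, with UMIs of 2 or more of 4 defining markers of NK cells (18 members), T cells (4) or macrophages (4), some of them counted for more than 1 type, and a median of 20510 UMIs. Without them the NK markers summed to 98.4, 151 and 101 CPM, a drop that the choice of candidates by these markers entails. Cytotoxic genes followed these cells. *Gzmb*, granzyme B, had 15.2, 173 and 28.8 CPM in the members and 1.11, 7.93 and 3.07 without the candidates, and *Gzmc* had 69.3, 83.4 and 251 and, without them, 2.22, 11.9 and 1.02. With all members 4 of 6 cytotoxic genes were higher than in cDC1s; without the candidates none of 5 tested was higher.

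Genes of the cell cycle also followed the candidates, and the authors had left proliferating cells out before they annotated cDC1s, so a low level in cDC1s is in part by choice. *Top2a*, a topoisomerase of dividing cells, had 25.2, 39.3 and 11.4 CPM in the members and 10.01, 10.3 and 5.11 without them, and *Mki67* had 19.4, 25.8 and 10.5 and, without them, 7.23, 10.3 and 7.16. Of 10 genes 6 were higher than in cDC1s and none lower; without the candidates none was higher and 2 were lower. Against pre‐cDCs none of 6 tested passed, and without the candidates 4 were lower. With the library as a block *Mki67* was called lower than in pre‐cDCs (−0.64, adjusted p = 0.029). The lists of pDC products (17 of 17) and lymphoid genes (9 of 9) were called as before in both comparisons without these 22 cells.

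The genotypes had 1 library each, so members are compared between them by size alone, with no test. Of 3020 genes at 50 CPM or more in either library, 30 (0.993%) differed 2-fold or more between *sGsn-/-* and WT, 14 higher and 16 lower in *sGsn-/-*; in cDC1s, which had far more cells, 3 of 2521 did. Between *sGsn-/- Clec9a-/-* and *sGsn-/-* 37 of 3029 (1.22%) did, 23 higher and 14 lower in *sGsn-/- Clec9a-/-*, compared with 13 of 2464 in cDC1s. None of the 16 pDC products, 11 pDC transcription factors, 13 secretory genes or 7 lymphoid genes at this level was among them in either pair, beside the low shares over all genes. Past 2-fold between *sGsn-/-* and WT were 2 of 4 genes listed for transitional dendritic cells, *Tmem176a* and *Tmem176b*, both lower in *sGsn-/-*, as well as 2 of 6 cytokines and chemokines (1 higher and 1 lower), 2 of 4 NK markers and 1 of 2 cytotoxic genes (higher in *sGsn-/-*), 1 of 4 cDC2 markers and 1 of 4 glycolysis and hypoxia genes (lower). Both macrophage markers at this level were lower in *sGsn-/-* too, but 1 WT cell held 190 of 262 *Apoe* UMIs and 1 WT cell 98 of 221 *Lyz2* UMIs. Between *sGsn-/- Clec9a-/-* and *sGsn-/-* none of 3 transitional genes was past 2-fold, and higher in *sGsn-/- Clec9a-/-* were 1 of 4 survival genes, 1 of 4 cDC2 markers, 1 of 2 macrophage markers, 1 of 2 cytotoxic genes and 1 of 2 cDC1 markers, while the other cytotoxic gene, the other cDC1 marker (*Clec9a*), 2 of 4 NK markers and 1 of 7 cytokines and chemokines were lower. The cytotoxic gene that was higher was *Gzmc*, and 1 cell held 283 of its 287 UMIs in *sGsn-/- Clec9a-/-*. Without the doublet candidates its levels, given above, ran the other way, lower in *sGsn-/- Clec9a-/-* than in *sGsn-/-*. Genotype, animal pool and library cannot be told apart in these values.

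The largest ratios from WT to *sGsn-/-* belonged to *Gzmb*, *Pclaf*, *Ctla2a*, *Ccl5* and *Hist1h1b*. *Gzmb* had 15.2, 173 and 28.8 CPM (log2 ratio 3.46), which became 1.11, 7.93 and 3.07 without the doublet candidates. The chemokine *Ccl5* had 28.9, 212 and 90.8 CPM, which became 7.23, 21.4 and 23.5, and the protease inhibitor *Ctla2a* 18.9, 172 and 28.8, which became 5.004, 20.6 and 3.07. *Pclaf* and the histone *Hist1h1b*, genes of DNA replication, went from 5.25, 53.6 and 13.97 to 2.22, 24.6 and 0 and from 11.6, 80.04 and 48.9 to 8.90, 24.6 and 4.09. The *sGsn-/-* and WT levels were both lower in each without the 22 cells. In annotated cDC1s of the same libraries the log2 ratios of these 5 genes, in the order first given, were 2.20, 0.105, 1.94, 1.01 and 0.711, so *Gzmb*, *Ctla2a* and *Ccl5* were higher in *sGsn-/-* there as well. The part of doublets or of ambient RNA in these ratios was not tested further.

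The smallest ratios were those of *Cxcl2*, *Hspa1a*, *Cxcl10*, *Lyz2* and *Mgl2*. The heat shock gene *Hspa1a* had 213, 27.8 and 83.8 CPM (log2 ratio −2.92, and −0.841 in cDC1s), low in *sGsn-/-* and high in WT, and 208, 27.7 and 47.03 without the candidates. *Cxcl10*, a chemokine induced by interferon, had 97.7, 28.5 and 56.8 CPM (log2 ratio −1.76), and 47.3, 8.72 and 20.4 without the candidates; in WT 6 cells held its 186 UMIs, and 1 of them 100. The lysozyme gene *Lyz2*, a macrophage marker, had 116, 37.98 and 574 CPM, with *sGsn-/-* lowest and *sGsn-/- Clec9a-/-* highest, and 116, 40.4 and 259.7 without the candidates.

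Between *sGsn-/-* and *sGsn-/- Clec9a-/-* the gene that differed most was *Clec9a* itself (log2 ratio −5.90), the deleted gene, followed downward by *Gzmb*, *Ctla2a*, *Gzma* and *Pclaf*. Upward stood *Ear2*, *Ccl1*, *Fn1*, *Cxcl2* and *Ccl6*, whose UMIs in *sGsn-/- Clec9a-/-* came from 7, 1, 11, 25 and 10 of the 112 members. All 141 UMIs of the chemokine *Ccl1* in *sGsn-/- Clec9a-/-* came from 1 cell, a doublet candidate, and 331 of 522 UMIs of *Cxcl2* there came from 1 cell. *Ear2*, a ribonuclease of monocytes and eosinophils, had 28, 2 and 107 UMIs, fibronectin (*Fn1*) 84, 9 and 255 and the chemokine *Ccl6* 91, 10 and 189. Single cells thus held a large part of these counts.

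**Figure D2:**
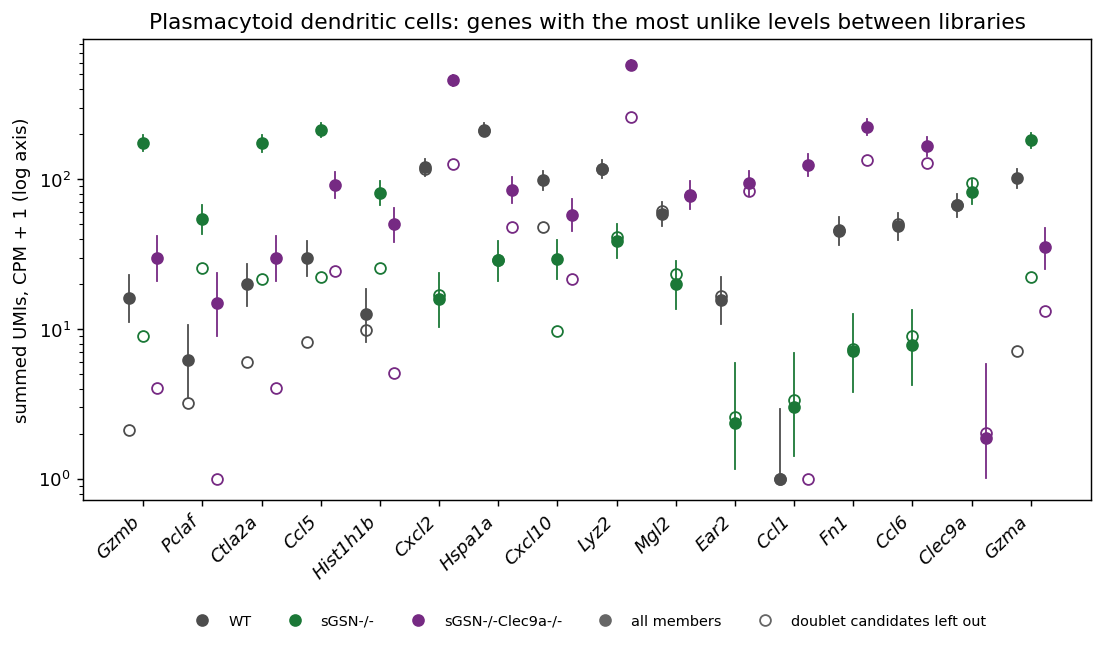
Genes with the most unlike levels between the libraries of plasmacytoid dendritic cells. Filled points, all members, with 95% counting intervals; open points, without the doublet candidates (CPM + 1 on a log axis).

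The *p* values describe how alike the 3 library sums of a group were, not animals of 1 genotype, since each library was a pool and carried its own genotype. cDC1s had been annotated by the authors on the same counts, and the pre‐cDC gate was set on transcripts, so that differences from either depend partly on how those cells were chosen.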

How the data were processed

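The authors sequenced the 3 remixed libraries with droplet chemistry and deposited UMI counts per gene and barcode made with Cell Ranger on mm10 (GRCm38), together with a table of the barcodes they annotated as cDC1s. The deposited counts held 32285 genes, of which 32235 were matched to GENCODE mouse M21. Members, comparison cells and gene lists were chosen with earlier results of these data known. Barcodes needed 800 or more genes and mt- transcripts under 10% of UMIs. The pre‐cDC gate took cells outside the cDC1 table with UMIs of genes that included *Flt3* and *Cd7* and with none of *Xcr1*, *C1qa*, *Siglech*, *Ncr1*, *Klrb1c* or *Cd3e* (233, 126 and 145 cells). The NK gate, used as a background of detection, took cells with *Ncr1* and *Klrb1c* and without *Flt3*, *Xcr1* or *C1qa* (646, 1006 and 705). Annotated cDC1s under the same filters numbered 2296, 1674 and 1745.

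UMIs were summed per library and cell group. The sums were compared with edgeR 4.0.16 (R 4.3.3), using TMM factors, filterByExpr and the quasi-likelihood F-test, with Benjamini-Hochberg adjustment over all genes tested and a threshold of 0.05; the standard error was taken from the fold change and F. Genes that chose either group were left out, 7 in the comparison with cDC1s and 13 in that with pre‐cDCs. Where the counts of only 1 group took a gene past the filter, its direction in that test follows from the filter. Cells of 1 library share a pool and a genotype by design; residuals of the 2 sums of a library correlated at 0.12 to 0.14 in the comparison with cDC1s and 0.068 to 0.21 in that with pre‐cDCs, and an alternative fit took libraries as blocks. For a gene with no count in 1 group, the fold is given as at least that reached with 3 counts in that group; for 1 to 3 counts it is a ratio of pooled counts with an exact interval. Between genotypes, log2 ratios of CPM were taken with 0.5 CPM added, for genes at 50 CPM or more in either library. Intervals of CPM are exact Poisson, those of shares exact Clopper-Pearson, and both cover counting error only.

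The genes named were, by rule, those of 5 lists (pDC products, pDC and cDC transcription factors, endosomal sensing, interferons) and the rule, the 4 most abundant in members from each other list, the 5 largest and 5 smallest fold changes past the threshold at 50 CPM or more, the genes of the genotypes and sort, and the 5 largest and 5 smallest ratios between libraries. The symbol *Mx1* was not in the matrices. Some genes that these rules took are not reported here. No doublet caller was run; members with UMIs of 2 or more of 4 markers of another cell type were left out as an alternative. Other alternatives were DESeq2 1.42.0, unscaled library sizes, all genes with a count, 2 libraries in place of 3, cells thinned to 3000 UMIs, 3 or 1 of the 4 genes required, mt- under 5% and a wider pre‐cDC gate. Because the authors remixed sorted fractions, shares are not frequencies in tumours. Tables were made with Python 3.11.15, numpy 2.4.6, scipy 1.17.1 and pandas 2.3.3, and figures with matplotlib 3.10.9.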

Additional observations from a re-analysis of the deposited data

How the results depend on the processing

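Counts of called genes kept within 1.5-fold under most settings. Against cDC1s, leaving out 1 library (leave-one-out) gave 2132 to 2399 genes higher and 2283 to 2517 lower, and against pre‐cDCs 1054 to 1142 and 977 to 1173, with fewer sums tested. DESeq2 called 2952 higher and 2820 lower against cDC1s, of which 2610 and 2745 were shared with edgeR; no gene was called in opposite directions. Without TMM factors 4526 were higher and 1764 lower, and with cells thinned to 3000 UMIs, where fewer genes were tested, 1706 and 1845 (753 and 713 against pre‐cDCs). The library as a block changed calls of named genes only as given in the report, and otherwise for genes that included *Il1r2* (cDC1s) and *Ccl6*, *Cxcl10*, *Fn1*, *Lyz2*, *Mki67* and *Pgk1* (pre‐cDCs), which became calls.

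Directions of named genes turned in 3 settings. Without TMM factors *Ccr2* (0.23), *Cox4i1* (0.24) and *Gsn* (0.22) turned to higher than in cDC1s. Without doublet candidates, against cDC1s, *Gzma* (−0.25), *Gzmb* (−0.50), *Gzmc* (−0.27), *Klre1* (−0.59), *Mki67* (−0.51), *Nkg7* (−0.33) and *Trbc2* (−0.52) turned, and against pre‐cDCs *Ccl5* (−1.77), *Gzma* (−0.31), *Hist1h1b* (−1.46), *Klre1* (−1.17) and *Serpinb9* (−0.47). *Ear2* against cDC1s was 0.89 without *sGsn-/-* and −1.46 without *sGsn-/- Clec9a-/-*, whose library held most of its UMIs. The cause of the turns was not tested beyond this.

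The share of members depended on the rule: 0.879%, 1.16% and 0.873% with 3 of the 4 genes required, 2.57%, 3.13% and 2.34% with 1, and 1.07%, 1.34% and 1.06% after thinning, with *sGsn-/-* highest each time. Genes past 2-fold between *sGsn-/-* and WT numbered 51 with 3 genes required, 101 after thinning and 14 at 100 CPM or more; between *sGsn-/- Clec9a-/-* and *sGsn-/-* they numbered 74, 145 and 20, and 23 without doublet candidates, where *Ccl1* turned to −2.53. The thinned cells, with the fewest UMIs, gave the most such genes, and counting error limits this comparison.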

Other observations

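Levels of survival, glycolysis and respiration genes in plasmacytoid dendritic cells, other than *Cox6a2*, were not given above. *Bcl2l11*, the death-promoting BIM, had 252, 193 and 176 CPM in the members, 193, 171 and 132 in pre‐cDCs and 84.4, 79.5 and 66.5 in cDC1s, above cDC1s in each library (1.14 ± 0.12, adjusted p = 1.0e-05). *Mcl1*, a survival gene, had 712, 524 and 497 CPM, lower than in pre‐cDCs (−0.94 ± 0.13, adjusted p = 5.2e-05), as was *Bcl2a1b* (−1.89 ± 0.25, adjusted p = 5.3e-05). Of 8 survival genes, 2 were higher and 5 lower than in cDC1s. Against pre‐cDCs 5 of 7 tested were lower and none higher (3 lower with DESeq2). Of 8 glycolysis and hypoxia genes, 2 were higher and 3 lower than in cDC1s. Against pre‐cDCs 1 was higher and 2 were lower (4 lower without the doublet candidates). *Hif1a*, the hypoxia factor, was higher than in pre‐cDCs (0.59 ± 0.10, adjusted p = 5.0e-04) and cDC1s (1.28 ± 0.09, adjusted p = 2.0e-07), whereas the glycolytic enzymes *Ldha* (−0.56 ± 0.10, adjusted p = 4.2e-04, and −0.95 ± 0.09, adjusted p = 2.6e-06) and *Hk2* (−1.67 ± 0.18, adjusted p = 7.9e-06, and −1.30 ± 0.18, adjusted p = 7.6e-05) were lower. Of 10 other cytochrome c oxidase subunits, with *Cox6a2* set aside as a gene of the rule, 5 were lower and none higher than in cDC1s, but without TMM factors 3 were higher and none lower; against pre‐cDCs 1 of 9 was lower.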
